A study of Mus musculus with 42 samples.

Results

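Ribosomal protein genes encode the proteins that, with ribosomal RNA, build the small (40S) and large (60S) subunits of the cytosolic ribosome. Each protein is made from its own messenger RNA (mRNA), the copies must match across many genes, and most of these mRNAs start with a run of pyrimidines, the 5′ terminal oligopyrimidine (TOP) motif, through which the kinase mTORC1 and the binding protein LARP1 control their translation in response to nutrients. In liver, a tissue that secretes most plasma proteins, they are among the abundant mRNAs of every hepatocyte. The members were chosen by name: every gene of the KO lean vs WT lean table whose symbol starts with Rpl or Rps and a digit, together with Rplp0, Rplp1, Rplp2 and Rpsa, without the Rps6k kinases and without symbols that contain -ps. This rule gave 82 of 13031 listed genes. Of them 31 belong to the 40S subunit, 42 to the 60S subunit and 3 to the P-stalk, the arm of the 60S subunit that recruits elongation factors. The other 6 (Rpl22l1, Rpl36al, Rpl7l1, Rps27l, Rps4y2 and Rps19bp1) carry such a name but are paralogs or not subunits. All 82 passed the filter on low values in every table, except that Rpl30 is not listed in the WT obese+RvE1 vs WT obese table, which leaves 81 there.

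The study asked how obesity, the receptor ChemR23 and its ligand resolvin E1 (RvE1), a lipid formed in the body from the omega-3 fatty acid EPA, shape the liver transcriptome. Livers of 42 male mice on a C57BL/6J background were sequenced with a stranded RNA kit (the labels name both total and polyA RNA), 1 library per mouse and 7 mice in each of 6 groups. WT littermates and mice that lack ChemR23 (KO, made with CRISPR/Cas9) ate from 6 weeks of age, for 15 weeks, a diet with 10% of its energy as fat (WT lean, KO lean) or with 60% (WT obese, KO obese), the fat being lard. These 4 groups had vehicle (ethanol in PBS), and WT obese+RvE1 and KO obese+RvE1 mice, on the high fat diet, had 300 ng of RvE1 by intraperitoneal injection on 4 days before harvest on day 5.

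The deposited values are read counts divided by a size factor that was set separately for each of 6 tables, here called normalized counts, so groups are compared only within a table. Between 15960120 and 43755273 reads per mouse (median 24253532) fell on listed genes. Cmklr1, the gene of ChemR23, lay at 9.72 to 22.6 (median 10.7) normalized counts in KO lean and at 40.8 to 114 (median 62.0) in WT lean livers, with no overlap between the groups (Log2FC = -2.23, BH-adjusted p = 0.000492), and the Log2FC in KO obese vs WT obese was -2.04. Albumin mRNA, which marks hepatocytes, took 1.79% to 4.02% of the reads in the table of lean mice. A gene was called higher or lower at a BH-adjusted p under 0.1 with limma on log2(normalized count + 1), fitted over all genes of the table, and Log2FC below is the difference on that scale, first group minus second. Nothing in the labels tells whether mice of a group shared a litter or cage. The number that opens a mouse's identifier is mostly shared by several mice, and nearly every such number lies in a single group. The p-values take the mice as independent and measure only the spread between these mice.

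In WT lean livers the members spanned a wide range. Their mean normalized counts ran from 11.9 to 5494 with a median of 345, and 14 of the 82 lay under 100. Ranked by mean level per kilobase of transcript, the highest was Rpl41, which encodes the smallest protein of the large subunit, at 5837 to 9057 normalized counts per kilobase with a median of 6641. Rplp1, a P-stalk protein, followed at 4651 to 8902 normalized counts per kilobase with a median of 5562, and Rpl8, a 60S protein near the peptidyl transferase centre, at 4780.1 to 7005 normalized counts per kilobase with a median of 5890.1. Among these 3 genes the ranges of the 7 mice overlapped. At the lower end stood Rpl30, a 60S protein, at 10.6 to 26.7 normalized counts per kilobase with a median of 13.9. Rps15a, a 40S protein, lay at 23.3 to 51.3 normalized counts per kilobase with a median of 36.2, and Rps21, also 40S, at 16.1 to 61.7 normalized counts per kilobase with a median of 50.2. The low rank of Rps15a follows from its annotated transcript of 5130 bases, as its mean was 186 normalized counts. The ranges of Rps15a and Rps21 overlapped, and Rpl30 overlapped Rps15a and Rps21 as well.

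**Figure D1:**
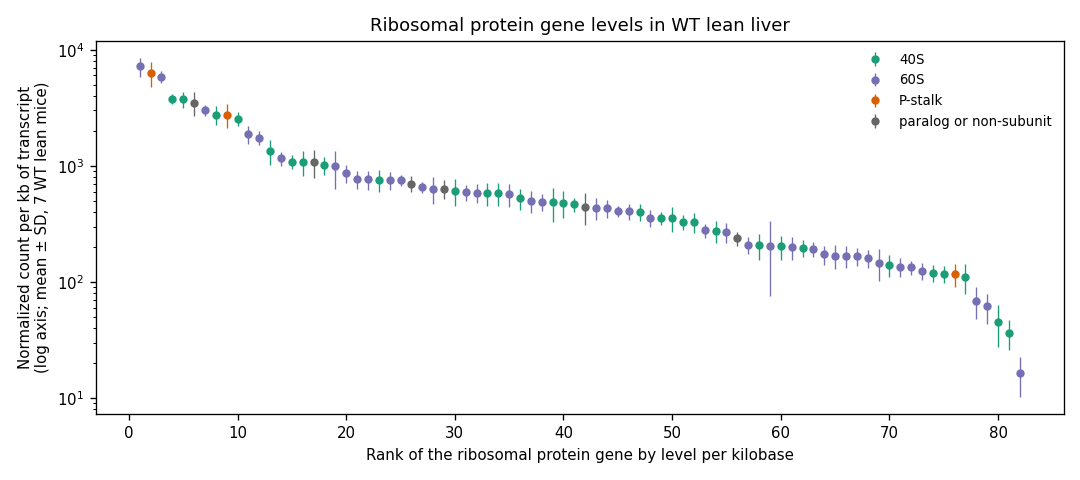
Level of each of the 82 ribosomal protein genes in WT lean liver, as normalized count per kilobase of transcript on a log axis, against its rank. Points are means and bars the SD of 7 mice, with colors for subunit class, and the means run from 7217 (Rpl41) to 16.3 (Rpl30).

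How reads were placed bears on such levels. Bowtie2, the aligner the study used, does not split a read over an intron, and only pairs with both ends placed were counted, so a read that crosses an exon junction can be lost or placed on an intronless copy. The longest exon of the members ranged from 72 bases (Rps21) to 4816 bases (Rps15a, with an annotated transcript of 5130 bases), with a median of 281. Over the 82 genes, the WT lean level and the length of the longest exon had a Spearman correlation of 0.42, a description across genes that share libraries. Some intronless copies had more reads than their parent gene. Rps15a-ps4, a processed pseudogene of Rps15a, had 345 to 903 (median 659) reads per 100 reads of Rps15a itself in WT lean mice, and Rpl31-ps12 had 277 to 379 (median 316) per 100 reads of Rpl31, while Rps19-ps3 had 24.9 to 31.8 (median 27.7) per 100 reads of Rps19. How reads were divided between a gene and its copies was not tested.

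The TOP motif, which the rule did not use, is shown because translation control through it is the best known regulation of this family. The 8 members were picked after their values and sequences were seen, to show long, short and absent runs, and 37 of the 61 windows hold a run. RefSeq holds a promoter for 61 of the 82 members (GRCm38.p6), and the 30 bases printed begin 10 before the first annotated start and read 5′ to 3′ on the gene's strand. Capitals mark the longest run of at least 5 pyrimidines that opens with C.
Rpl13a, chr7:45128726-45128755, minus strand: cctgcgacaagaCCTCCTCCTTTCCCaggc
Rpl27a, chr7:109519185-109519214, plus strand: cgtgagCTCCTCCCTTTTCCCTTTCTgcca
Rpl28, chr7:4792955-4792984, plus strand: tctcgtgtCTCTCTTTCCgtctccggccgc
Rps10, chr17:27635225-27635254, minus strand: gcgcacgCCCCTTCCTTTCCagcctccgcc
Rpl22l1, chr3:28805498-28805527, plus strand: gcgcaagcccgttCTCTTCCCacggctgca
Rplp0, chr5:115559457-115559486, plus strand: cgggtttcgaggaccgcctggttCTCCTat
Rps27l, chr9:66946076-66946105, plus strand: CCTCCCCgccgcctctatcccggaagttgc
Rpl9, chr5:65391412-65391441, minus strand: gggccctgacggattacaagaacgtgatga
Long runs stood within 5 bases of the annotated start in Rpl13a, Rpl27a, Rpl28 and Rps10. Rplp0 has a short run further in and Rpl9 none in this window, which says only that these letters are not at the start RefSeq annotates. A C at the annotated start followed by 4 pyrimidines was found in 12 of 61 members (19.7%) and in 2.49% of 27025 promoters, and with a start allowed from 5 bases before to 5 after in 28 (45.9%) against 18.5%. The ETS factor motif CCGGAAG, on either strand of the 300 bases from 250 before to 50 after the start, was in 23 of 61 members (37.7%) against 9.12% of all. AAGATGG, the core of the YY1 motif, on either strand too and able to share the letters AAG with the former, was in 9 (14.8%) against 6.48%. The E-box CACGTG was in 5 (8.20%) against 7.24%, and TATAAA in 6 (9.84%) against 14.2%. A match is a description of letters, not a site.

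The share of a mouse's reads that fell on all members together needs no size factor. It was 0.223% to 0.331% (median 0.297%) in WT lean and 0.238% to 0.317% (median 0.301%) in KO lean mice, and the groups overlapped over most of their range. In the tables of the diet comparisons, the share was 0.208% to 0.3% (median 0.258%) in WT obese against 0.222% to 0.327% (median 0.294%) in WT lean mice, and 0.183% to 0.274% (median 0.224%) in KO obese against 0.236% to 0.311% (median 0.298%) in KO lean mice. The KO obese median lay under the lowest KO lean mouse, although the ranges overlapped. WT obese+RvE1 mice held the narrowest range, 0.216% to 0.262% (median 0.240%), and KO obese+RvE1 mice the widest, 0.171% to 0.318% (median 0.244%). In the last group mice 1 and 7 had the lowest shares of the 7.

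**Figure D2:**
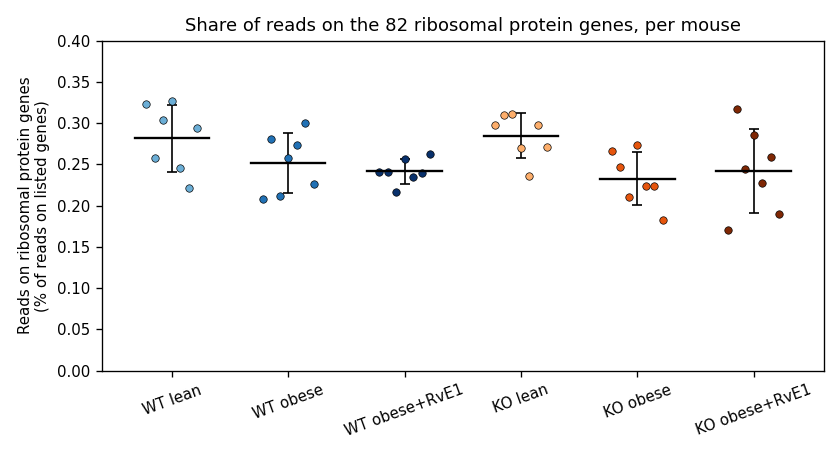
Percent of a mouse's reads on listed genes that fell on the 82 ribosomal protein genes, for the 6 groups of 7 mice. Points are mice, lines the group mean and bars the SD; each mouse's share is taken from 1 of its tables, and KO obese mice lie between 0.183% and 0.274%, KO lean mice between 0.236% and 0.311%.

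The largest number of members changed with the high fat diet in KO mice. There 31 members were called lower and 1 higher (37.8% and 1.22% of 82), where 12.1% of all genes tested were called lower and 12% higher. Of those 32, 14 also passed a fold change of 1.5. Over all genes tested, 1704 were called higher and 1718 lower, and 1476 of these called genes passed it (10.4% of all genes tested). The median Log2FC of the members was -0.26 (range -1.31 to 0.48) against -0.0021 over all genes, and 63 members were below 0. The members' median was -0.12 with equal total reads and -0.072 with the length and GC correction. The calls were spread over the ribosome: 12 of 31 40S genes, 14 of 42 60S genes, 1 of 3 P-stalk genes and 4 of 6 paralogs or non-subunits were lower. In WT mice the same diet lowered 4 members and raised 0 (4.88% lower, where 2.61% of all genes were lower and 3.65% higher), and KO lean mice differed from WT lean mice in 10 members called higher and 3 lower (12.2% and 3.66%, against 8% and 8.3% of all genes), shares of the same order as the background. With the number that opens a mouse's identifier as a random block, 0 members were called in these last 2 comparisons. In the other 3 comparisons 0 members were called.

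**Figure D3:**
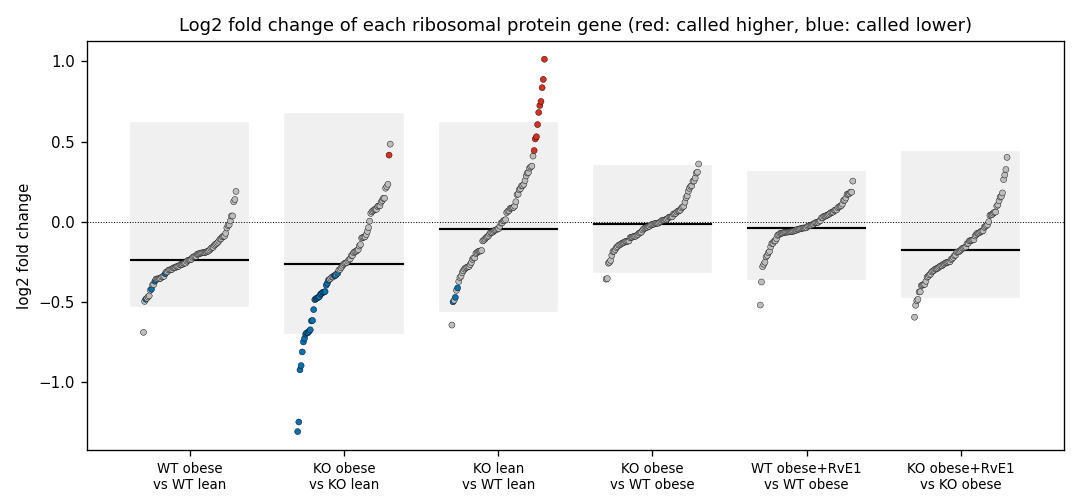
Log2FC of each ribosomal protein gene in the 6 comparisons, sorted within each, with members called higher in red, called lower in blue and the rest in gray. Black lines are the members' medians (-0.26 for KO obese vs KO lean) and gray boxes hold all genes tested from the 5th to the 95th percentile.

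Rplp0, the P-stalk protein that anchors Rplp1 and Rplp2 to the ribosome, was lower in every KO obese mouse than in any KO lean mouse. Its normalized counts were 2276 to 4116 (median 3071) in KO obese and 4432 to 5773 (median 4911) in KO lean livers. The groups did not overlap, which of the members held for Rplp0 and Rpl7l1 (2 of 82) and in 1.11% of all genes in this direction (Log2FC = -0.69, SE 0.12, BH-adjusted p = 0.00383). Rplp1 (Log2FC = -0.18) and Rplp2 (Log2FC = 0.13) were not called, and no difference between the 3 genes was tested.

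Rpl13a had the largest fold change among subunit genes. It encodes a 60S protein that, once released from the ribosome, silences inflammatory mRNAs in myeloid cells, and its introns hold 4 small nucleolar RNAs (snoRNAs). KO obese mice had 593 to 1330.2 (median 917) and KO lean mice 1305 to 3133 (median 2182) normalized counts, and 6 of 7 KO obese mice lay under every KO lean mouse (Log2FC = -1.25, SE 0.20, BH-adjusted p = 0.00322). Rps3, a 40S protein at the mRNA entry channel, was at 1676 to 2868 (median 2093) in KO obese and 2793 to 5016 (median 3918) in KO lean mice. Of the KO obese mice, 5 of 7 were under the KO lean range (Log2FC = -0.81, SE 0.16, BH-adjusted p = 0.00592). Other 40S genes called lower included Rps20 (-0.75), Rps24 (-0.70), Rps9 (-0.45), Rps27a (-0.92) and Rpsa, the laminin receptor protein (-0.39). Among 60S genes, Rpl41 (-0.69), Rpl29 (-0.61), Rpl39 (-0.89), Rpl8 (-0.44) and Rpl15 (-0.47) were called lower too. Further subunit genes called lower included Rpl12, Rpl13, Rpl14, Rpl22, Rpl28, Rpl36, Rpl7, Rps10, Rps14, Rps15, Rps27 and Rps7, with Log2FC from -0.73 to -0.33.

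Rpl9, a 60S protein, was the 1 member called higher. KO obese mice had 89.9 to 151 (median 113) and KO lean mice 71.4 to 105 (median 83.8) normalized counts, and 5 of 7 KO obese mice were above every KO lean mouse (Log2FC = 0.42, SE 0.14, BH-adjusted p = 0.0488). Rpl38, a 60S protein required for translation of Hox mRNAs, had the highest Log2FC of all members, 0.48, but its groups overlapped at a low level, 16.6 to 35.3 (median 24.5) against 10.6 to 31.1 (median 19.4) normalized counts, and it was not called.

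**Figure D4:**
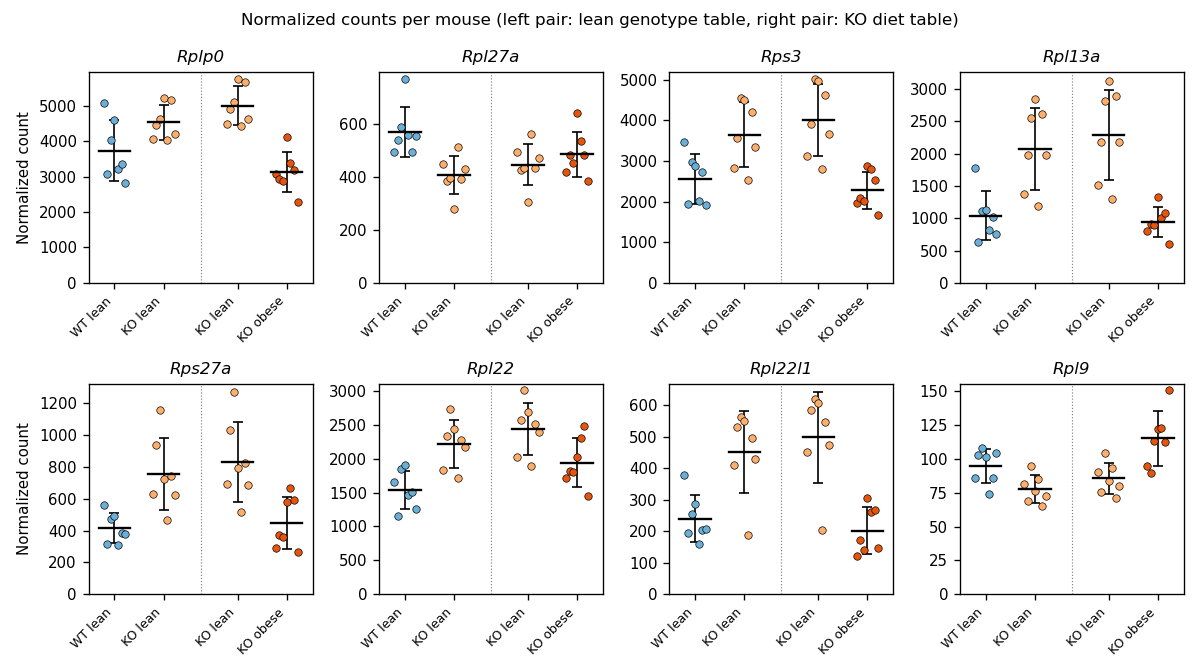
Normalized counts per mouse of 8 members, WT lean and KO lean in the table of lean mice (left pair) and KO lean and KO obese in the KO diet table (right pair), each table with its own size factors. Lines are means and bars the SD of 7 mice; Rplp0 does not overlap between KO lean and KO obese, and Rpl9 goes the other way.

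Members called lower were mostly the more abundant ones. Their median WT lean level was 1036 normalized counts, against 251 for the 50 not called in either direction, and their longest exon had a median of 322 against 239 bases. Across the 82 genes the Log2FC had a Spearman correlation of -0.44 with the level and -0.25 with the longest exon, given as a description. A snoRNA gene lies inside 8 of the 31 genes called lower and 22 of the 50 not called. Of the promoters at hand, 11 of 21 in the genes called lower and 17 of 40 in the rest held the C and pyrimidine run near the start.

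Markers of Kupffer cells and lymphocytes moved with this comparison. Lists of sinusoidal endothelial, stellate, cholangiocyte, erythroid, adipocyte and acinar markers were also set, and their results are not given here. Of 9 Kupffer cell markers tested, 8 were called lower in KO obese mice (median Log2FC = -0.90), and their summed level was 6251 to 8709.9 normalized counts in KO obese and 11266 to 23695 in KO lean livers, with no marker at 0. Of 9 lymphocyte markers 6 were lower, while of 8 hepatocyte markers 0 were lower and 0 higher. In bulk tissue fewer cells of a type and less RNA per cell cannot be told apart, and the part of these cells in the members' change was not tested. Lower calls were also made among mitochondrial ribosomal proteins (20 of 76 lower, 26.3%), proteasome subunits (10 of 38, 26.3%) and complex I subunits (8 of 35, 22.9%), and no difference between these lists and the members was tested. The number of calls depended on settings. After a correction for transcript length and GC content 15 were lower and 5 higher, with equal total reads, where the median of all genes moved to 0.14, 17 and 1, and with the number that opens a mouse's identifier as a random block 12 and 0. Leaving out single mice gave 22 to 38 calls, and leaving out all mice with identifier number 9, 10 or 31 left 19, 11 and 12. For these settings the share of all genes called is not given here.

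In WT mice the diet lowered Rpl28, Rpl3, Rps10 and Rpl8, all by less than 1.5 times. Rpl28, a 60S protein, was at 96.6 to 164 (median 121) normalized counts in WT obese and 149.8 to 223 (median 164) in WT lean mice (Log2FC = -0.48, SE 0.13, BH-adjusted p = 0.0526). For Rpl3, which reaches the peptidyl transferase centre, the values were 329.8 to 502 (median 437) and 467 to 606 (median 538) (Log2FC = -0.37, SE 0.11, BH-adjusted p = 0.0877). Rps10, a 40S protein near the mRNA entry, lay at 155 to 248 (median 234) and 248 to 345 (median 270.4) (Log2FC = -0.42, SE 0.13, BH-adjusted p = 0.0895). In each of these 3 genes, 6 of 7 WT obese mice were under the lowest WT lean mouse and 1 was within the WT lean range. Rpl8 was at 3509.7 to 4694 (median 4470.0) and 4327 to 6300.0 (median 5312) (Log2FC = -0.32, BH-adjusted p = 0.0997).

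Beyond those calls, 76 of 82 members had a Log2FC below 0, with a median of -0.24 against 0.003 over all genes. With equal total reads this median was -0.18 and with the length and GC correction -0.30. Mitochondrial ribosomal proteins had a median of 0.12 and 0 of 76 called. None of 9 Kupffer cell markers was called, with a median of 0.02. The 4 calls rested on few mice: leaving out WT lean mouse 2, or WT obese mouse 6 or 7, left 0, and leaving out WT lean mouse 3, 4 or 5 or WT obese mouse 3 left 1, WT lean mouse 1 or WT obese mouse 5 left 2. With equal total reads and with the identifier block 0 were called, while library quality weights gave 13 and the length and GC correction 15, all lower. How many of all genes were called in these runs is not given here, so these counts have no background.

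No member passed the threshold for a difference of the diet effect between genotypes. In the interaction of diet and genotype limma called 0 members and 0.00718% of all genes, and 20 of 82 (24.4%) had an unadjusted p under 0.05, where 18.3% of all genes had. Of those 20, 8 had a larger and 12 a smaller Log2FC in KO mice. The smallest p belonged to Rpl9, with a difference (KO minus WT) of 0.58 (95% CI 0.23 to 0.94, BH-adjusted p = 0.141), from Log2FC = -0.17 in WT and 0.42 in KO mice. For Rpl13a the difference was -1.02 (95% CI -1.69 to -0.36, BH-adjusted p = 0.143), from -0.22 in WT and -1.25 in KO mice. Leaving out KO lean mouse 5 gave 10 members called, 5 in each direction, and leaving out WT obese mouse 1 gave 3. Library quality weights gave 7 above and 11 below, DESeq2 1 above and 2 below, and edgeR 0. The share of all genes called in these runs is not given here, so these counts have no background.

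In lean mice, a small set of members was higher without ChemR23. Rps27a, which encodes a 40S protein fused to ubiquitin, was at 469 to 1155 (median 721) normalized counts in KO lean and 309.9 to 558 (median 382) in WT lean mice, and 6 of 7 KO mice were above every WT mouse (Log2FC = 0.84, SE 0.18, BH-adjusted p = 0.0347). Rpl13a was at 1189 to 2841 (median 1979.9) and 628 to 1778 (median 1023), with 5 of 7 KO mice above the WT range (Log2FC = 1.01, SE 0.23, BH-adjusted p = 0.0357). Rpl22, a 60S protein needed for T cell development, was at 1720.1 to 2737 (median 2282) and 1149 to 1904 (median 1505), again with 5 of 7 above (Log2FC = 0.53, SE 0.13, BH-adjusted p = 0.0400). Rpl39 (Log2FC = 0.75), Rpl15 (0.44), Rps7 (0.68), Rps3 (0.52) and Rps14 (0.72) were the other subunit genes called higher.

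Called lower were 3 members, all 60S. Rpl27a was at 277 to 512 (median 394) normalized counts in KO lean and 493 to 769.6 (median 554) in WT lean mice, with 6 of 7 KO mice under every WT mouse (Log2FC = -0.50, SE 0.13, BH-adjusted p = 0.0443). Rpl23 was at 236 to 367 (median 346) and 333 to 559.8 (median 472), with 3 of 7 under the WT range (Log2FC = -0.47, SE 0.13, BH-adjusted p = 0.0471). Rpl19, which forms a bridge to the 40S subunit, was at 161 to 251 (median 199) and 213 to 340.5 (median 261), with 5 of 7 under it (Log2FC = -0.41, SE 0.13, BH-adjusted p = 0.0631). The median Log2FC of all members was -0.043, with 37 above and 45 below 0.

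This comparison and the diet comparison in KO mice share the 7 KO lean mice, so the opposite signs of a gene in both are not independent. Their values stand side by side: Rpl13a had a Log2FC of 1.01 in KO lean vs WT lean and -1.25 in KO obese vs KO lean, Rps27a 0.84 and -0.92, and Rplp0 0.30 (not called) and -0.69. All 9 Kupffer cell markers tested were called higher in KO lean mice (median Log2FC = 0.98), with a summed level of 10223 to 21485 against 4455 to 9302 normalized counts, and 3 of 6 lymphocyte markers were higher. Their part in the members' change was not tested. Albumin took 1.79% to 2.75% of reads in KO lean and 2.66% to 4.02% in WT lean mice.

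The split of the 13 calls turned with the scaling. Equal total reads moved the median of all genes to -0.12 and gave 5 higher and 8 lower, the length and GC correction 6 and 15, and library quality weights 13 and 15. With the identifier block 0 were called. Leaving out KO lean mouse 5, which had the lowest Rpl22l1, Rpl13a, Rps27a and Rpl39 of its group, gave 22 calls, WT lean mouse 2 or 5 left 6, and KO lean mouse 2 or 6 left 8. These counts too stand without the share of all genes called. Rps27a, Rpl13a, Rpl22 and Rpl27a were above or below 0 in the same direction in every alternative run.

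Between obese genotypes, 0 of 82 members were called with limma, edgeR or DESeq2, and 2 had an unadjusted p under 0.05, where 0.0141% of all genes were called and 2.25% had such a p. Rpl9 was at 87.1 to 145 (median 109) normalized counts in KO obese and 76.3 to 125 (median 87.4) in WT obese mice (Log2FC = 0.30, 95% CI 0.031 to 0.58, BH-adjusted p = 1.00). The groups overlapped. The members' Log2FC ran from -0.36 to 0.36 with a median of -0.016, and 0 of 9 Kupffer cell markers were called.

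RvE1 gave 0 calls among the members in either genotype with limma, edgeR or DESeq2, and limma called 0% of all genes in WT and 0% in KO mice. In WT obese mice 2 of 81 members had an unadjusted p under 0.05 (6.08% of all genes had). Rpl27a was at 369.8 to 494 (median 427) normalized counts with RvE1 and 457 to 777 (median 557) with vehicle (Log2FC = -0.37, 95% CI -0.60 to -0.15, BH-adjusted p = 0.772). Rpl10a, of the L1 stalk that releases used transfer RNA, was at 457 to 584 (median 510.4) and 459.5 to 755 (median 639) (Log2FC = -0.28, 95% CI -0.48 to -0.078, BH-adjusted p = 0.772). The groups overlapped in both genes.

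In KO obese mice 5 of 82 members had an unadjusted p under 0.05 with RvE1 (8.3% of all genes had). Rpl9 was at 65.0 to 95.3 (median 77.6) normalized counts with RvE1 and 90.8 to 152 (median 114) with vehicle, and 5 of 7 mice with RvE1 were under every vehicle mouse (Log2FC = -0.52, 95% CI -0.79 to -0.25, BH-adjusted p = 0.557). The same KO obese vehicle mice stand in the comparisons with KO lean and with WT obese mice, so the results for Rpl9 there and here are not independent. Rpl23a, at the exit of the peptide tunnel, was at 130.0 to 220.0 (median 193) and 211 to 279 (median 229.8) (Log2FC = -0.39, 95% CI -0.65 to -0.14, BH-adjusted p = 0.557). The members' median Log2FC was -0.18 with 65 of 82 below 0. It was -0.075 without KO obese+RvE1 mouse 1 and -0.10 without mouse 7, the mice with the lowest share of reads on the members. With both left out, an alternative chosen after seeing the data, it was 0.067 with 0 members called, a rise that the choice of these mice sets in part. In the interaction of RvE1 and genotype 0 of 81 members were called (0% of all genes), and 3 had an unadjusted p under 0.05 (2.38% of all genes had). For Rpl23a the difference (KO minus WT) was -0.45 (95% CI -0.84 to -0.068, BH-adjusted p = 1.00).

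Some members are paralogs that can replace a subunit. Rpl22l1, which can take the place of Rpl22, was called higher in KO lean than in WT lean mice, 186 to 563 (median 495) against 158 to 377 (median 207) normalized counts, with 6 of 7 KO mice above every WT mouse and KO lean mouse 5 at the bottom (Log2FC = 0.89, SE 0.23, BH-adjusted p = 0.0442). With the diet it fell in KO mice to 122 to 305 (median 171) from 205 to 619 (median 546), the largest change of any member (Log2FC = -1.31, SE 0.26, BH-adjusted p = 0.00622). In WT mice its Log2FC with the diet was -0.16 (95% CI -0.68 to 0.37), and the difference between genotypes was -1.15 (95% CI -1.92 to -0.38, BH-adjusted p = 0.146). Within a mouse, which needs no scaling, Rpl22l1 had 10.8 to 22.8 (median 15.0) reads per 100 reads of Rpl22 in WT lean, 10.8 to 22.7 (median 21.7) in KO lean and 7.10 to 15.0 (median 10.1) in KO obese mice. In the KO lean group all but mouse 5 were above every KO obese mouse. Ratios are given as values with no test.

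Rps27l, a p53 target that is nearly identical to the 40S protein Rps27, was called higher in KO lean than in WT lean mice (Log2FC = 0.61, BH-adjusted p = 0.0722) and not called with the diet in KO mice (Log2FC = -0.21). It had 893 to 2651 (median 1566) reads per 100 reads of Rps27 in KO lean and 1566 to 3369 (median 2229) in KO obese mice, and 1024 to 1478 (median 1308) in WT lean and 1350 to 2790.5 (median 1709.7) in WT obese mice. In single mice Rps27 had as few as 29 (KO lean), 21 (KO obese), 31 (WT lean) and 19 (WT obese) reads. Its longest exon is 111 bases, and reads over exon junctions can be lost, so these ratios are imprecise. Per 100 reads of Rps27a, a different 40S gene chosen after its values were seen, Rps27l had 87.1 to 131 (median 107) reads in KO lean and 152 to 201 (median 173) in KO obese mice, which did not overlap, against 112 to 158 (median 120.4) in WT lean and 143 to 198 (median 152) in WT obese mice. Rps27a itself was called lower in KO obese than in KO lean mice (Log2FC = -0.92), so the latter ratio in part restates that fall. Rpl13a had 29.5 to 55.0 (median 47.2) reads per 100 of Rplp0 in KO lean, 20.5 to 34.9 (median 26.5) in WT lean and 26.0 to 34.0 (median 30.8) in KO obese mice.

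**Figure D5:**
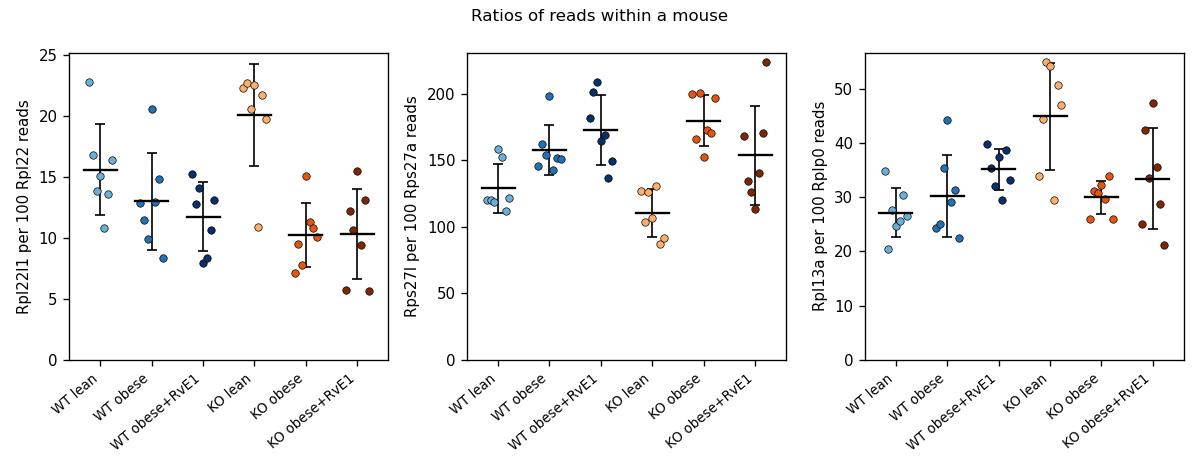
Reads of Rpl22l1 per 100 reads of Rpl22, of Rps27l per 100 of Rps27a, and of Rpl13a per 100 of Rplp0, within each mouse of the 6 groups. Points are mice, lines means and bars the SD. The Rps27l ratio of KO lean mice (87.1 to 131) lies under that of KO obese mice (152 to 201). Rps27a, chosen after its values were seen, was itself called lower in KO obese mice (Log2FC = -0.92).

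Rpl36al, the paralog of Rpl36a, was called lower with the diet in KO mice (Log2FC = -0.48, BH-adjusted p = 0.0508) and had far more reads than Rpl36a in every mouse. The longest exon is 435 bases in Rpl36al and 123 in Rpl36a, and reads over exon junctions can be lost. How far this sets the difference in reads was not tested. Rpl7l1, a paralog of Rpl7 that acts in assembly of the large subunit, was lower in every KO obese than KO lean mouse, 980.1 to 1374 (median 1254) against 1375 to 1658 (median 1451) normalized counts, although the highest KO obese and the lowest KO lean mouse were almost equal (Log2FC = -0.32, SE 0.094, BH-adjusted p = 0.0329). Rps4y2, an intronless copy of Rps4x on chromosome 6 that GENCODE annotates as a transcribed processed pseudogene, was called lower with an adjusted p close to the threshold (Log2FC = -0.55, BH-adjusted p = 0.0996). Reads of the spliced Rps4x mRNA and of this copy cannot be told apart where their sequences are the same. Rps19bp1, which binds Rps19 and is not a subunit, was not called in any comparison, with Log2FC from -0.30 to 0.13.

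Subunit genes that the name rule misses did not all change. Gnb2l1, the former symbol of Rack1, a scaffold on the 40S head, was at 2708 to 5007 (median 3482) normalized counts in KO obese and 5087 to 11220.1 (median 7497) in KO lean mice, with no overlap (Log2FC = -1.04, SE 0.18, BH-adjusted p = 0.00351). It was called higher in KO lean than in WT lean mice (Log2FC = 0.56, BH-adjusted p = 0.0729). Fau, which encodes Rps30 fused to a ubiquitin-like protein, had a Log2FC of -0.23 with the diet in KO mice and 0.015 between lean genotypes, with no call.

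Genes around the ribosome were called in both directions with the diet in KO mice, where 12% of all genes were higher and 12.1% lower, and several of the lists below lie at or under those shares. Among translation elongation factors, 0 higher and 2 lower of 6 were called, Eef1b2 (Log2FC = -0.66) and Eif5a (-0.52), while Eef1a1 (-0.31) and Eef2 (-0.21) were not. Other TOP mRNAs had 2 higher and 3 lower of 18, with a median Log2FC of 0.072. Those called lower, Eif3k (-0.65), Eif3f (-0.35) and Eif3h (-0.39), are subunits of initiation factor eIF3. In the list of mTORC1 and TOP control genes, 1 higher and 1 lower of 21 were called. Higher was Deptor, an inhibitor of mTOR (Log2FC = 0.88, BH-adjusted p = 0.00621), which was lower in KO lean than in WT lean mice (Log2FC = -0.83, BH-adjusted p = 0.0357). Lower was Akt1s1, which encodes the mTORC1 inhibitor PRAS40 (-0.36).

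Genes of RNA polymerases I and III, which make ribosomal RNA, had 3 higher and 4 lower of 19. Polr1a, the largest subunit of polymerase I, was higher (Log2FC = 0.56), and Maf1, a repressor of polymerase III, lower (Log2FC = -0.70, BH-adjusted p = 0.00202). Chaperones and import factors of ribosomal proteins had 3 higher and 0 lower of 14, ribosome rescue and quality control 1 higher and 0 lower of 10, and the ribosomal protein, Mdm2 and p53 axis 3 higher and 1 lower of 8. The last list's calls were Mdm2, the p53 ubiquitin ligase that free ribosomal proteins inhibit (Log2FC = 0.33), Mdm4 (0.56) and Zmat3 (0.65), which were higher, and Bbc3 (-0.97), which was lower.

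In WT mice the diet gave 1 call in these 7 lists, Larp1 of the mTORC1 and TOP control genes, which was lower (Log2FC = -0.44, BH-adjusted p = 0.0957). Between lean genotypes, where 8% of all genes were higher and 8.3% lower, elongation factors had 2 higher and 0 lower of 6, other TOP mRNAs had 3 higher and 2 lower of 18, mTORC1 and TOP control genes had 0 higher and 4 lower of 21, polymerase I and III genes had 2 higher and 4 lower of 19, chaperones and import factors had 1 higher and 3 lower of 14, rescue and quality control had 0 higher and 1 lower of 10, and the Mdm2 and p53 axis 1 higher and 1 lower of 8.

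Some rows named as processed pseudogenes were called where their parent genes were not. Rps15a-ps4, Rps15a-ps6 and Rpl31-ps12 were called higher in KO lean than in WT lean mice (Log2FC = 0.81, 0.90 and 0.95) and lower with the diet in KO mice (-1.02, -1.12 and -0.92). Rps15a, the parent gene of the first 2, had Log2FC of 0.35 and -0.23 in the same comparisons, and Rpl31 0.21 and -0.15, with no call. Rps19-ps3 was not called in either (Log2FC = -0.33 and 0.24). Together Rps15a-ps4, Rps15a-ps6, Rps19-ps3 and Rpl31-ps12 took 0.00816% to 0.0234% of reads in KO lean and 0.00682% to 0.0149% in WT lean mice. The members' share of reads does not include them, and any other -ps rows were not summed.

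Members also differed in how much they varied between mice of a group. The SD of log2 values within groups, pooled over the 6 groups, had a median of 0.33 over the members against 0.32 over 12768 genes. The largest were Rpl22l1 (0.65), Rps14 (0.60), a 40S protein of the platform, and Rpl39 (0.60), a small protein of the peptide tunnel wall. In all 3 the SD was largest in KO obese+RvE1 mice, 1.07, 1.02 and 1.03. Rpl22l1 ran there from 63.9 to 366 normalized counts, Rpl39 from 95.2 to 725 and Rps14 from 92.0 to 614. Mice 1 and 7 of that group were the lowest in Rpl22l1 and Rpl39, as they were in the members' share of reads.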

How the data were processed

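Whole livers of 42 mice were sequenced and the deposited files hold 6 tables of gene-level signal values, each with 2 groups of 7 mice. Per the methods and the labels, the authors placed read pairs on mm10 with Bowtie2, counted pairs with both ends placed using featureCounts, and scaled each library by its DESeq2 size factor. For versions, gene annotation and strand: not given in the sources used here. Whole reads could be recovered from 100% of the deposited signal values within 0.1 reads, and none of 748832 recovered counts differed between tables that share a mouse. Listed genes held 15960120 to 43755273 reads per mouse, which sets the precision of low genes. No pair of the 126 pairs of libraries within a group agreed within sampling noise. The tables also hold the authors' mean, log2 fold change, its error and p-values, which were not used. Between 20 and 26 names per table had been turned into dates and were not restored.

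Genes with a mean of at least 5 normalized counts were fitted with limma 3.58.1 in R 4.3.3 (lmFit and eBayes with trend) on log2(value + 1), with only the 2 groups of the table in the fit and BH adjustment over all genes tested. The alternatives used edgeR 4.0.16 and DESeq2 1.42.0 on recovered reads, other scalings and pseudocounts, no filter on low values, a loess correction for length and GC content, library quality weights, stricter thresholds, mice left out, and the number that opens a mouse's identifier as a random block. What that number stands for is not stated. Counts of members called under the alternatives mostly stand without the share of all genes called under the same setting. Interactions used both diet or both RvE1 tables. Mouse numbers only name mice within a group. The script was tested on simulated data. Lengths and snoRNAs come from GENCODE M21, promoters from RefSeq.

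The members and all gene lists were chosen with earlier results of these data known. Named were up to 3 members per direction with the smallest adjusted p in each comparison (the 2 with the smallest p where none was called), the 3 highest, lowest and most variable members, all paralogs, and Fau and Gnb2l1. Some genes that this rule gives are not reported here by name, and all counts, medians and shares include them. Other members were named after their values were seen.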

Additional observations from a re-analysis of the deposited data

Results flagged for a closer look

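Of 41 groups of 7 mice that were tested for a single mouse far from the others, 4 held one (9.76%), where chance gives about 1 in 20. The tests share mice, and the genes were picked from these same values, so the rates do not tell whether 4 is an excess. WT lean mouse 4 had 769.6 normalized counts of Rpl27a, a 60S protein, in the table of lean mice, where the others had 493 to 587, and KO lean mouse 4 had 236 of Rpl23 against 316 to 367. In the table of obese vehicle mice, WT obese mouse 3 had 125 of Rpl9 against 76.3 to 91.0. In the WT obese+RvE1 vs WT obese table, WT obese mouse 2 had 777 of Rpl27a against 457 to 595.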

How the results depend on the processing

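The alternatives followed up to 3 called members per direction in each comparison, or the 2 with the smallest p where none was called. None of these members reversed its sign, and other named members were not followed. The split of the calls between higher and lower turned in KO lean vs WT lean. In WT obese vs WT lean, 4 members were called, and 0 with equal total reads, the identifier block, a cutoff of 0.05 or a fold change above 1.5, 15 with the length and GC correction, 13 with library quality weights, 7 with DESeq2, and 0 to 8 with mice left out. In KO obese vs KO lean, 32 were called, and 18 with equal total reads, 20 with the length and GC correction, 12 with the identifier block, 14 with a fold change above 1.5 and 11 to 38 with mice left out. In that comparison Rpl13a and Rplp0 stayed called lower in all 29 alternatives, and the members' median Log2FC was -0.072 after the length and GC correction. In KO lean vs WT lean, 13 were called, and 21 with the length and GC correction (median Log2FC -0.21), 0 with the identifier block, 28 with quality weights, 7 at a cutoff of 0.05, 7 above a fold change of 1.5 and 0 to 23 with mice left out, the lowest without identifier number 9, 21 or 26. In KO obese+RvE1 vs KO obese, 0 to 1 were called with mice left out, the 1 without number 10. In the interaction of diet and genotype, 18 were called with quality weights, 3 with DESeq2 and 0 to 10 with mice left out. The other counts stayed within 1.5 times. The cause of these shifts was not tested, beyond fewer mice where mice were left out. Most of these counts stand without the share of all genes. A shift of calls over all genes is therefore not separated from one in the members.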
